A study of Mus musculus with 24 samples.

Results

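The voltage-gated potassium channel subunits of the mouse were followed through RNA-seq of 3 brain regions after olfactory bulbectomy or a sham operation. The family was taken as every protein-coding gene whose symbol begins with Kcna, Kcnb, Kcnc, Kcnd, Kcnf, Kcng, Kcnh, Kcnq, Kcns or Kcnv, which gives 43 of the 55487 genes counted. The animals all carried the Wild-type genotype, and operated animals, whose olfactory bulbs had been removed, were set against sham controls to ask how losing the bulbs alters each region. Bulbectomy was sampled in 4 libraries from hippocampus, 3 from cortex (numbers 1, 2 and 4) and 2 from cerebellum, and sham surgery in 5 from each region. The sources used here give no strain, age, sex or time since surgery. Nothing in the labels ties a library to an animal of its own, so the p-values measure the spread between these libraries, which may be partly technical.

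A voltage-gated potassium channel is a ring of alpha subunits that opens on depolarisation and lets potassium leave the neuron, which ends the action potential and sets firing rate. The Kv1 subunits (Kcna) form low-threshold axonal channels and bind the cytoplasmic beta subunits (Kcnab). Kv2 (Kcnb) forms the somatodendritic delayed rectifier and Kv3 (Kcnc) the fast, high-threshold channels of rapidly firing neurons. Kv4 (Kcnd) forms the transient A-type current and Kv7 (Kcnq) the M-current that muscarinic receptors close. The EAG family (Kcnh) forms varied channels, only some of them inwardly rectifying. The Kcnf, Kcng, Kcns and Kcnv proteins are called silent, because they make no channel alone and alter Kv2 channels that take them up.

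Of the 43 genes, 36 were expressed highly enough to be tested in hippocampus, 38 in cortex and 32 in cerebellum. Kcna10, Kcna7, Kcng3, Kcnh8 and Kcnv2 were tested in no tissue. Over all 24 libraries Kcna10 had 7 reads, Kcna7 9, Kcnv2 41, Kcng3 61 and Kcnh8 81. Kcna3 and Kcnq1 were also below the filter in hippocampus, and Kcna3, Kcnf1, Kcnh5, Kcnh7, Kcnq5 and Kcnv1 in cerebellum. Exons of Kcna6 overlapped genes of the opposite strand over 39.61% of their length, those of Kcng2 over 9.1% and of Kcnab3 over 5.13%, and the strand setting of the counting is not given, so reads of these genes and their antisense partners cannot be told apart.

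Some libraries stood apart. Reads assigned to genes numbered 3255661 in hippocampus sham 1, 138963332 in hippocampus sham 4 and 8145624 to 20230673 in the other libraries. Summed over 12 striatal markers, hippocampus sham 1 and 2 reached 2463 and 3533 CPM (reads of a gene scaled to the size of its library), against 201 to 405 CPM in the other 7 hippocampus libraries. Sham 2 also had the lowest sum over 9 dentate granule cell markers, 55.7 CPM, against 174 to 289 CPM in the other 8. The 11 Purkinje cell markers summed to 3189 to 6920 CPM in the 7 cerebellum libraries and to at most 1038 CPM elsewhere, and the 12 cortical layer markers to 557 to 763 CPM in cortex and at most 414 CPM elsewhere. Cerebellum sham 1 differed from the other cerebellum libraries in the direction of low-GC genes. Across 15276 genes its deviation from the tissue median correlated with exon GC content at r = -0.57, and across the 32 channel genes at r = -0.82. Values without these libraries are given below for a number of the genes that they move. In bulk tissue, fewer cells of a type and less RNA per cell cannot be told apart.

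In sham brains the tissues drew on different subunits. Levels per gene are given as CPM per kilobase of exon, so that genes can be set side by side. Kcng4 made up 20.8 ± 3.602% of the summed level of the 40 alpha and silent subunits in cerebellum, against 1.75 ± 0.71% in hippocampus and 1.67 ± 0.31% in cortex (SD, n = 5 each). Kcnc1 made up 9.62 ± 1.82%, 4.73 ± 0.26% and 4.79 ± 0.28% in cerebellum, hippocampus and cortex. Kcnh3 ran the other way, with 0.19 ± 0.14% in cerebellum, 10.9 ± 4.51% in hippocampus and 14.3 ± 0.96% in cortex (SD, n = 5 each). The beta subunit Kcnab2 stood above every alpha subunit in hippocampus and in cortex, where it averaged 229 ± 70.6 and 190 ± 19.9 CPM per kilobase, and lay below Kcng4 in cerebellum at 72.5 ± 19.4 CPM per kilobase (SD, n = 5 each).

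**Figure D1:**
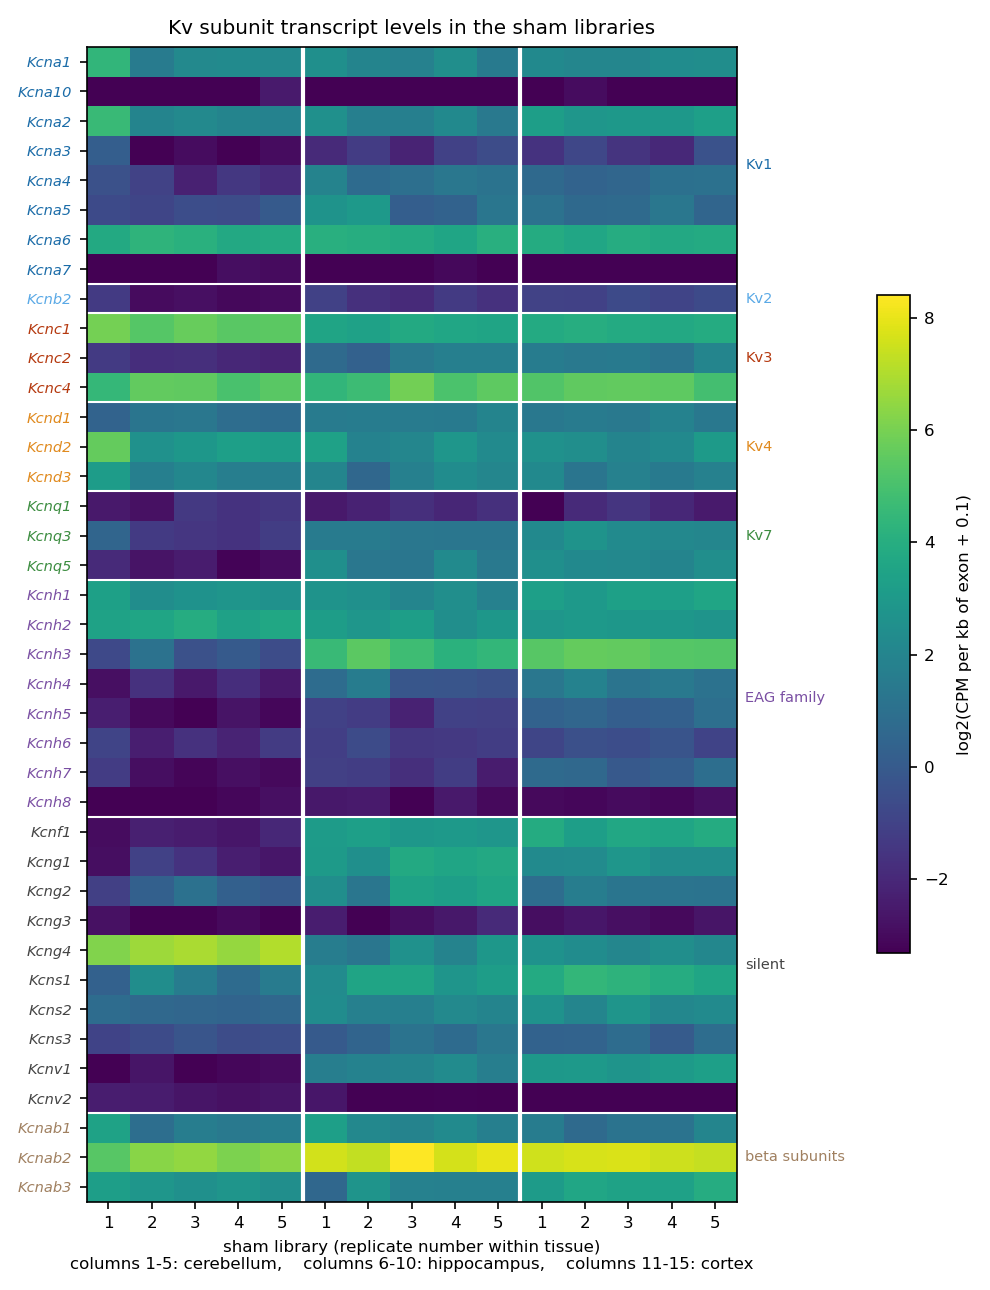
Level of 39 of the 43 genes in each of the 15 sham libraries, as log2 of CPM per kilobase of exon plus 0.1, with cerebellum on the left, hippocampus in the middle and cortex on the right and rows grouped by subfamily. Kcng4 and Kcnc1 are bright in the 5 cerebellum columns, while Kcnf1, Kcng1, Kcnv1, Kcnh3 and Kcnq5 are dark there, and the first cerebellum column departs from the other 4 in Kcna1, Kcna2 and Kcnd2.

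Between sham cerebellum and sham cortex 26 of the 38 genes tested were called, 5 higher and 21 lower, with an adjusted p under 0.05 in edgeR's quasi-likelihood test. Among all 15142 genes tested, 17.9% were called higher and 16.8% lower. Between sham cerebellum and sham hippocampus 25 were called, 6 higher and 19 lower, where 12.9% of all genes were called higher and 15.5% lower. The median log2 fold change of the 38 genes was -1.23 for cerebellum over cortex and -1.51 for cerebellum over hippocampus, beside medians of 0.06 and 0.05 over all genes. Lower in cerebellum than in both other tissues were 18 of the 38 genes (47.4%), a pattern that 12.6% of all genes showed. Higher than in both were 5 (13.2%), close to the 10.9% of all genes. Without cerebellum sham 1 the lower pattern was shown by 20 of the 38 genes (52.6%) and 18.6% of all genes, and the higher one by 4 (10.5%) and 15.4% of all genes.

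Of the 5 members called higher in cerebellum than in both other tissues, Kcng4 had the largest difference in both comparisons. Kcng4 (ENSMUSG00000045246, GRCm38 chromosome 8, 119623854 to 119635680, minus strand), a silent subunit, had 73.0, 102, 119, 93.4 and 130 CPM per kilobase in the cerebellum libraries, against 3.06, 2.33, 5.94, 3.71 and 7.19 in hippocampus and 6.25, 5.08, 4.11, 5.53 and 4.13 in cortex. The lowest cerebellum value, 73.0, lay far above the highest value elsewhere, 7.19, and hippocampus and cortex overlapped. On the log2 scale the difference was 4.37 ± 0.29 over cortex (SE, adjusted p = 9.71e-09) and 4.53 ± 0.30 over hippocampus (SE, adjusted p = 9.98e-09). The Kv2 subunit Kcnb2, a partner of silent subunits, averaged 0.08 ± 0.12, 0.25 ± 0.08 and 0.45 ± 0.07 CPM per kilobase in cerebellum, hippocampus and cortex (SD, n = 5 each). The cerebellum mean of Kcnb2 rested on sham 1, at 0.301 CPM per kilobase, and was 0.028 ± 0.008 without it (SD, n = 4). Kcnb2 is not the whole of Kv2, so its level does not stand for that of Kv2 in a tissue. The 10 silent subunits summed to 110 ± 23.5 CPM per kilobase in cerebellum (SD, n = 5).

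The Kv3 genes differed from each other. Kcnc1 (ENSMUSG00000058975, GRCm38 chromosome 7, 46396497 to 46438704, plus strand), a subunit of fast-spiking neurons, had 61.2, 39.2, 51.6, 41.7 and 43.8 CPM per kilobase in cerebellum, 11.4, 10.3, 14.0, 12 and 11.5 in hippocampus and 14.5, 15.5, 14.2, 13.2 and 14.6 in cortex. Cerebellum did not overlap either tissue, and Kcnc1 was called over cortex at a log2 difference of 1.72 ± 0.14 (SE, adjusted p = 9.19e-08) and over hippocampus at 2.01 ± 0.14 (SE, adjusted p = 2.68e-08). Kcnc2, a subunit of forebrain interneurons, went the other way at 0.19 ± 0.07 CPM per kilobase in cerebellum, 2.34 ± 0.96 in hippocampus and 2.87 ± 0.65 in cortex (SD, n = 5 each). Kcnc4 averaged 38.5 ± 10.7, 36.7 ± 15.3 and 41.3 ± 7.61 CPM per kilobase in cerebellum, hippocampus and cortex, and no pair was called.

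Kcnh2 and Kcnd2, also called higher in cerebellum than in both tissues, differed in how far they rested on 1 library. Kcnh2, the ERG channel subunit whose human form underlies the cardiac rapid delayed rectifier, averaged 12.1 ± 1.87 CPM per kilobase in cerebellum, 7.66 ± 1.71 in hippocampus and 7.13 ± 0.44 in cortex (SD, n = 5 each). Its log2 difference was 0.77 over cortex and 0.67 over hippocampus. Kcnd2, the A-type subunit of cerebellar granule cells, had 49.6, 5.91, 7.23, 9.58 and 8.97 CPM per kilobase in cerebellum, against 10.3, 3.57, 4.04, 6.96 and 4.81 in hippocampus and 6.08, 5.53, 3.87, 4.65 and 8.18 in cortex. Its log2 difference over cortex was 1.52 ± 0.51 (SE, adjusted p = 0.0303), and 0.50 (adjusted p = 0.136) without cerebellum sham 1. Over hippocampus it was 1.46 ± 0.52 (SE, adjusted p = 0.0440), and 0.44 (adjusted p = 0.226) without that library. Without hippocampus sham 1 and 2 the difference over hippocampus was 1.61 (adjusted p = 0.0806).

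Silent subunits were numerous among the genes low in cerebellum. Of 8 silent subunits tested, 7 were called lower in cerebellum than in hippocampus and Kcng4 alone higher. Kcnf1, the only member of its silent subfamily, had 0.0323, 0.107, 0.0868, 0.0615 and 0.145 CPM per kilobase in cerebellum, 8.43, 9.76, 7.37, 7.90 and 7.13 in hippocampus and 14.9, 9.46, 13.1, 11.7 and 14.6 in cortex. It was near absent from the cerebellum libraries, which held 31 Kcnf1 reads in all, beside 7081 in hippocampus and 4137 in cortex. The log2 difference was -7.16 ± 0.28 for cerebellum over cortex (SE, adjusted p = 8.82e-11) and -6.50 ± 0.28 for cerebellum over hippocampus (SE, adjusted p = 1.90e-10). Kcnv1, another silent subunit, had 6 reads in the 5 cerebellum libraries, with 0 in 2 of them, beside 3974 in hippocampus and 2514 in cortex. Its log2 difference was -8.68 ± 0.42 for cerebellum over cortex (SE, adjusted p = 4.08e-10) and -7.58 ± 0.42 for cerebellum over hippocampus (SE, adjusted p = 1.42e-09). Kcng1, another silent subunit, averaged 0.16 ± 0.14 CPM per kilobase in cerebellum, 10.5 ± 3.46 in hippocampus and 5.49 ± 0.91 in cortex (SD, n = 5 each), with a log2 difference of -6.06 ± 0.46 for cerebellum over hippocampus (SE, adjusted p = 5.41e-08).

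**Figure D2:**
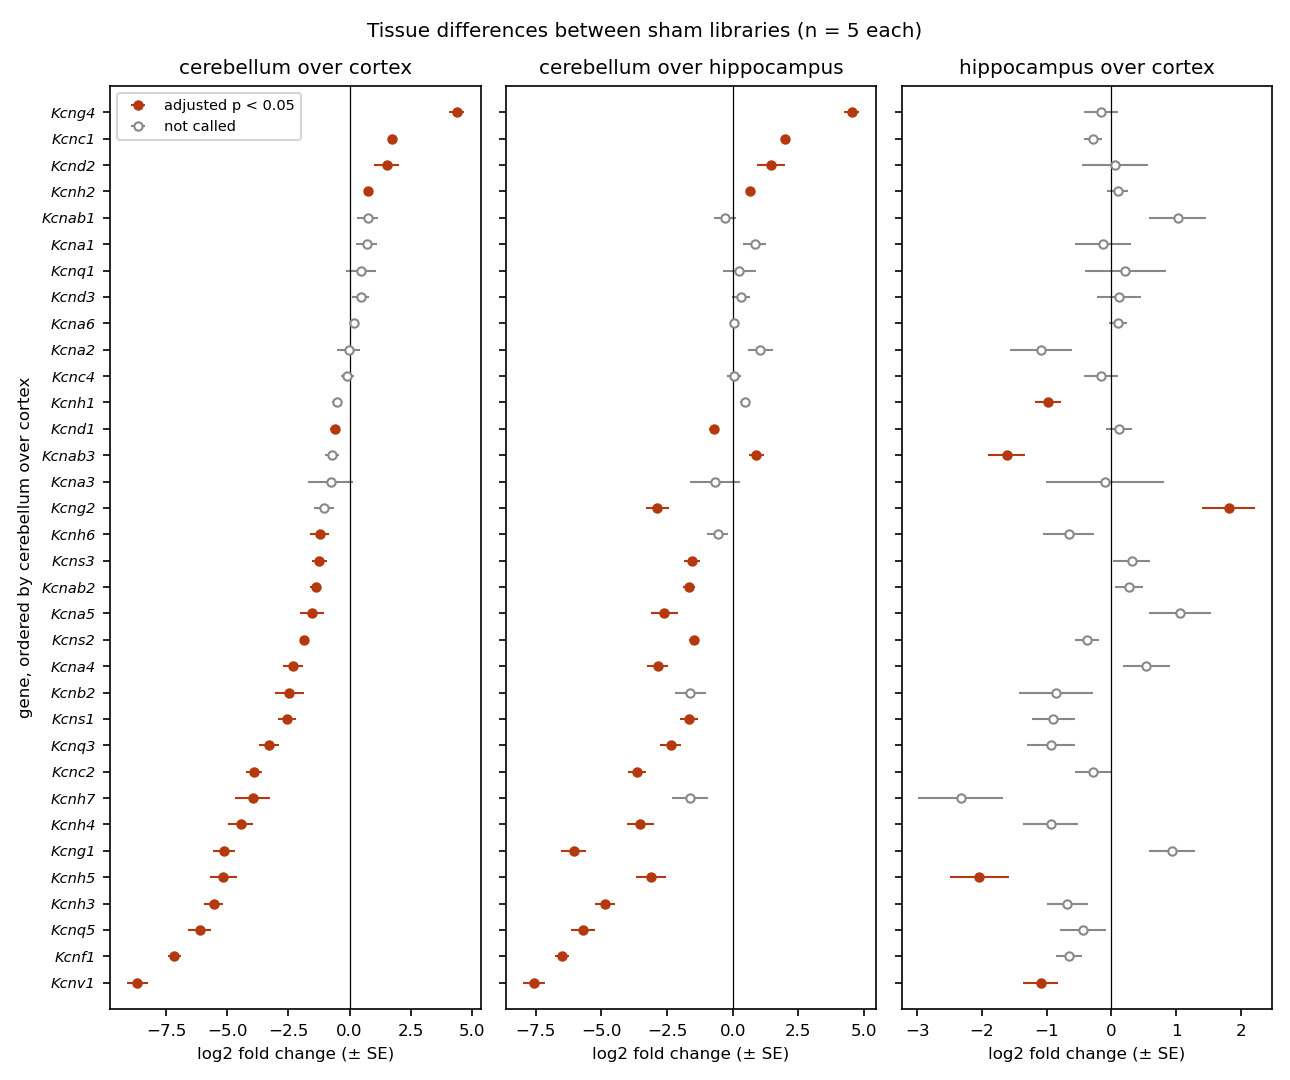
Log2 fold change between sham tissues for 34 of the 38 genes tested, with bars of 1 SE and filled points for an adjusted p under 0.05. Points run from -8.68 for Kcnv1 to 4.37 for Kcng4 in cerebellum over cortex, while hippocampus over cortex spans -2.33 to 1.81.

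The EAG family held 4.14 ± 0.43% of the alpha and silent subunit level in cerebellum, against 16.9 ± 5.50% in hippocampus and 21.9 ± 0.73% in cortex (SD, n = 5 each). Kcnh3 was the highest alpha subunit of cortex at 43.1 ± 4.83 CPM per kilobase and had 26.8 ± 9.84 in hippocampus, while cerebellum averaged 0.93 ± 0.64 (SD, n = 5 each). The log2 difference of cerebellum over cortex was -5.55 ± 0.39 (SE, adjusted p = 1.52e-08). Kcnh4 and Kcnh5 were likewise called lower in cerebellum than in both tissues. Of the Kv7 genes, Kcnq3 and Kcnq5, subunits of the neuronal M-current, were called lower in cerebellum than in both tissues, and Kcnq1, better known from heart, was called in no pair. Kcnq5 had 37 reads over the 5 cerebellum libraries, with log2 differences of -6.13 ± 0.47 over cortex (SE, adjusted p = 4.26e-08) and -5.69 ± 0.47 over hippocampus (SE, adjusted p = 1.11e-07).

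Kv1 was spread more evenly. Kcna6, its highest member on average in each tissue, had 15.7 ± 2.65 CPM per kilobase in cerebellum, 15.03 ± 2.01 in hippocampus and 14.0 ± 1.23 in cortex (SD, n = 5 each), and no pair was called. Its log2 differences between tissues were 0.07 to 0.17, with SEs of 0.14. Kcna4 and Kcna5, which form A-type and delayed rectifier channels, were called lower in cerebellum than in both tissues. Kcna1 and Kcna2, the axonal subunits, were called in no pair, and their cerebellum spread came mainly from sham 1. Kcna1 had 20.97 CPM per kilobase in cerebellum sham 1 and 2.85 to 4.81 in the other 4. Kcna2 had 24.6 in cerebellum sham 1 and 3.54 to 4.46 in the other 4, which lie below the 7.08 to 9.79 of the cortex libraries. Without cerebellum sham 1, Kcna2 was called lower in cerebellum than in cortex, at a log2 difference of -1.07 (adjusted p = 2.60e-04) instead of -0.04. It was then also called lower in hippocampus than in cortex, at -1.08 (adjusted p = 0.00171) instead of -1.09 (adjusted p = 0.308). Kcna1 was not called without that library either.

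Sham hippocampus and sham cortex were much closer to each other. Of 38 genes, 6 were called, with 1 higher in hippocampus, where 2.09% of all genes were called higher, and 5 lower, where 1.21% were called lower. Kcng2, a silent subunit, had 5.38, 2.36, 10.8, 9.52 and 11.7 CPM per kilobase in hippocampus, against 1.75, 3.06, 2.28, 2.16 and 2.12 in cortex. The lowest hippocampus value lay within the cortex range and was that of sham 2, and the log2 difference was 1.81 ± 0.41 (SE, adjusted p = 0.0209). Among the 5 lower in hippocampus were the beta subunit Kcnab3, with a log2 difference of -1.62 ± 0.29 (SE, adjusted p = 0.00658), the EAG subunits Kcnh5 at -2.04 ± 0.45 (SE, adjusted p = 0.0187) and Kcnh1 at -0.98 ± 0.20 (SE, adjusted p = 0.0133), and Kcnv1 at -1.10 ± 0.26 (SE, adjusted p = 0.0283). Kcnab3 had 1.43, 6.67, 3.49, 3.35 and 3.31 CPM per kilobase in hippocampus and 8.41, 12.1, 10.6, 10.4 and 15.4 in cortex, with no overlap. These calls were sensitive to the libraries used. Leaving out hippocampus sham 1 and 2 together gave 5 calls, with Kcnh5 and Kcnv1 lost and Kcnh4 gained, where 3.01% of all genes were called. Leaving out cortex sham 1, cortex sham 3, hippocampus sham 3 or hippocampus sham 5 gave 3 calls each, with Kcng2 and Kcnv1 among those lost, and leaving out cortex sham 5 gave 2, Kcnab3 and Kcnh1. Of all genes, 2.09%, 1.86%, 2.41% and 2.07% were called without cortex sham 1, cortex sham 3, hippocampus sham 3 and hippocampus sham 5, and 2.26% without cortex sham 5. Leaving out cerebellum sham 1, a library of neither tissue that shares the fit, gave 13, where 7.14% of all genes were called.

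CpG content varied among the promoters of the channel genes, also within the cerebellum-high and the cerebellum-low genes. RefSeq promoter windows on GRCm38.p6, running from 250 bases before to 50 bases after a start, were found for 27 of the 43 genes, with 36 windows in all. The median window held 17 CpG dinucleotides, against 7 over all 32851 windows. Shown are the 250 bases before the start, 5′ to 3′ on the gene's own strand with each CpG in capitals, for Kcnf1 (called both in the cerebellum comparisons and after bulbectomy), Kcng4 and Kcnc1 (the cerebellum-high genes with the most contrast in CpG). The windows lie at chr12:17176889-17177138 (minus strand), chr8:119635681-119635930 (minus strand) and chr7:46396218-46396467 (plus strand).
Kcnf1: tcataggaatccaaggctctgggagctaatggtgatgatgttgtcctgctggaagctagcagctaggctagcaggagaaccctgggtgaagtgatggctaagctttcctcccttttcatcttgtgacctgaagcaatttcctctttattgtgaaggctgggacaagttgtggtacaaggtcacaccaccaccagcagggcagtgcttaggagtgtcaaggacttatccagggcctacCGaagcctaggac
Kcng4: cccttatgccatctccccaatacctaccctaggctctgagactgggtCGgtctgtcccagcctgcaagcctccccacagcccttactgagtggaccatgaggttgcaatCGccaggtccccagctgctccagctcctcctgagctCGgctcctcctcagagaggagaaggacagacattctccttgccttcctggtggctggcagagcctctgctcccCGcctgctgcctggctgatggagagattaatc
Kcnc1: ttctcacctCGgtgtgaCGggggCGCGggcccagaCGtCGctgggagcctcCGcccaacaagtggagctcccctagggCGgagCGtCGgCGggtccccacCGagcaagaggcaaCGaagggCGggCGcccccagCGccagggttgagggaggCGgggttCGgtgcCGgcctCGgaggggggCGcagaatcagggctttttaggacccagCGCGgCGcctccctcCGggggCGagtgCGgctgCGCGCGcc
The stretch before Kcnf1 held 1 CpG, that before Kcng4 held 4 and that before Kcnc1 held 30. Searched on both strands of the full windows, the motif GGGCGG was present in 20 of the 36 windows (55.6%) and in 35.7% of all windows. TATAAA was present in 1 (2.78%), a window of Kcnab1, and in 13.6% of all windows. The 17 windows of genes low in cerebellum came from 10 genes and had a median of 6 CpGs, with a range of 3 to 32. Genes with several windows, such as Kcnc2 with windows of 3 to 6 CpGs, weigh more in that median. The 4 windows of genes high in cerebellum came from 4 genes and had a median of 22.5, with a range of 4 to 41. The groups overlapped, and Kcng4, with 4 CpGs in its full window, lay at the low end of its own group. These letters describe the windows and say nothing of what binds there.

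Bulbectomy changed 1 of the 36 channel genes tested in hippocampus. The silent subunit Kcnf1 (ENSMUSG00000051726, GRCm38 chromosome 12, 17172100 to 17176888, minus strand) fell to 16.1, 11.6, 14.4 and 17.6 CPM in the bulbectomy libraries, against 36.5, 44.4, 33.4, 34.6 and 32.5 CPM in the sham libraries. The groups did not overlap, and the highest bulbectomy value lay well under the lowest sham value. The means were 14.9 ± 2.55 CPM after bulbectomy (SD, n = 4) and 36.3 ± 4.76 CPM in sham (SD, n = 5). The log2 fold change was -1.28 ± 0.18 (SE, adjusted p = 0.00655), and 1.55% of the 13985 genes tested in hippocampus were called. Kcnf1 was called under all 17 alternative settings, at log2 fold changes of -1.39 to -1.17 and adjusted p-values up to 0.0418. Without hippocampus sham 1 and 2 its log2 fold change was -1.17 (adjusted p = 0.00621).

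**Figure D3:**
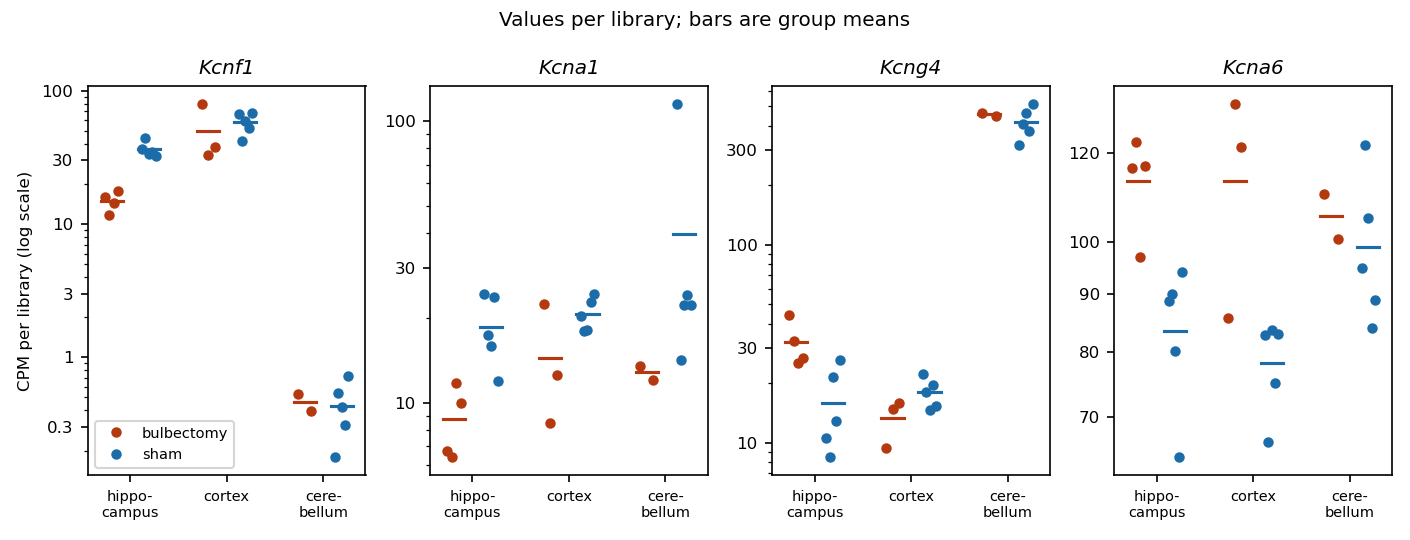
CPM of Kcnf1, Kcna1, Kcng4 and Kcna6 in every library on a log axis, with bulbectomy left of sham in each tissue, bars at the group means and CPM scaled within each tissue. Kcnf1 in hippocampus lies between 11.6 and 17.6 CPM after bulbectomy and between 32.5 and 44.4 CPM in sham, whereas the cortex groups overlap and cerebellum is below 1 CPM throughout.

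Several other channel genes came near the threshold in hippocampus without passing it. Kcna1, the axonal Kv1 subunit whose loss causes seizures in mice, had 6.77, 6.41, 11.8 and 9.97 CPM after bulbectomy, against 24.2, 17.3, 15.9, 23.8 and 12 CPM in sham. The groups did not overlap, by a narrow margin between 11.8 and 12 CPM. Its log2 fold change was -1.09 ± 0.27 (SE, adjusted p = 0.0547), and 5 of the 17 alternatives called it, with adjusted p-values from 0.00577 to 0.189. Without hippocampus sham 1 and 2 the log2 fold change of Kcna1 was -0.996 (adjusted p = 0.0737). Kcng4 had 44.0, 32.6, 25.2 and 26.7 CPM after bulbectomy and 10.6, 8.44, 21.4, 12.9 and 26.1 CPM in sham, at a log2 fold change of 1.01 ± 0.31 (SE, adjusted p = 0.104). Its bulbectomy and sham values overlapped, and without hippocampus sham 1 and 2 the log2 fold change was 0.69. Kcnh1, of the EAG family, had 17.15, 26.2, 18.55 and 19.7 CPM after bulbectomy and 41.9, 40.5, 27.1, 36.4 and 24.3 CPM in sham, at -0.73 ± 0.21 (SE, adjusted p = 0.0862), and -0.53 without hippocampus sham 1 and 2. DESeq2 called all 3 of these beside Kcnf1, and also called 6.09% of all genes, against 1.55% in edgeR's test.

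The remaining genes of smallest p in hippocampus had adjusted p-values of 0.139 to 0.162. Kcna6 had 97.0 to 123 CPM after bulbectomy, against 64.5 to 94.2 CPM in sham, without overlap, at a log2 fold change of 0.44 ± 0.15. Kcnq3, of the M-current, had 37.0 to 65.9 CPM after bulbectomy, against 30.9 to 39.3 CPM in sham, at 0.50 ± 0.19. Kcnv1 had 8.95 to 13.2 CPM after bulbectomy, against 13.1 to 20.4 CPM in sham, at -0.57 ± 0.20. Kcnh4 had 1.42 to 2.98 CPM after bulbectomy, against 2.46 to 11.0 CPM in sham, and here the sham values of 5.99 and 10.98 CPM belonged to sham 1 and 2. Without those libraries the log2 fold change of Kcnh4 was -0.45 instead of -1.31. The sham values of the Kv1 subunit Kcna5 split the same way, with 16.5 and 21.5 CPM in sham 1 and 2, against 2.815 to 6.26 CPM in the other sham libraries and 4.86 to 5.94 CPM after bulbectomy.

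Across the family in hippocampus, 15 of the 36 log2 fold changes were positive and 21 negative, with a median of -0.07 beside 0.02 over all genes. An unadjusted p under 0.05 was reached by 14 of the 36 (38.9%) and by 20.0% of all genes. Groups did not overlap for 3 of the 36 genes (8.33%), Kcna6 higher and Kcnf1 and Kcna1 lower, against 9.82% of all genes. By subfamily, 6 of 7 EAG genes and 2 of 3 Kv4 genes had negative values, with medians of -0.47 and -0.73, and 3 of 4 Kv3 genes had positive ones with a median of 0.21. None of these subfamilies had a called member. These medians moved with sham 1 and 2. Without both libraries 3 of 6 EAG genes tested were negative, with a median of -0.09, and 3 of 4 Kv3 genes were negative, with a median of -0.12, while the Kv4 median was -0.65. Kcnd3, a Kv4 subunit, was then called lower at a log2 fold change of -0.96 (adjusted p = 0.0229) instead of -0.73 (adjusted p = 0.18), where 2.48% of all genes were called. Markers of other regions and of hippocampus itself moved in the same comparison. The 14 thalamus and habenula markers summed to 411 to 688 CPM after bulbectomy, against 120 to 495 CPM in sham, and 4 of the 13 tested, Rora, Gpr151, Chrnb4 and Tac2, were called higher. At most 2 of the 14 were at 0 in any sham library, and none in a bulbectomy library. The striatal sum was 295 to 405 CPM after bulbectomy and 201 to 3533 CPM in sham. The 12 cortical layer markers summed to 214 to 281 CPM after bulbectomy, against 240 to 414 CPM in sham. Of these 12, 5 had positive and 7 negative log2 fold changes, and Rasgrf2 was called lower. The 11 Purkinje cell markers summed to 284 to 377 CPM after bulbectomy, against 368 to 1038 CPM in sham. Of 7 pyramidal cell and 8 cerebellar granule cell markers tested, Pou3f1 and Cbln1 were called higher, 1 in each list. The part of these markers in the channel results was not tested.

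**Figure D4:**
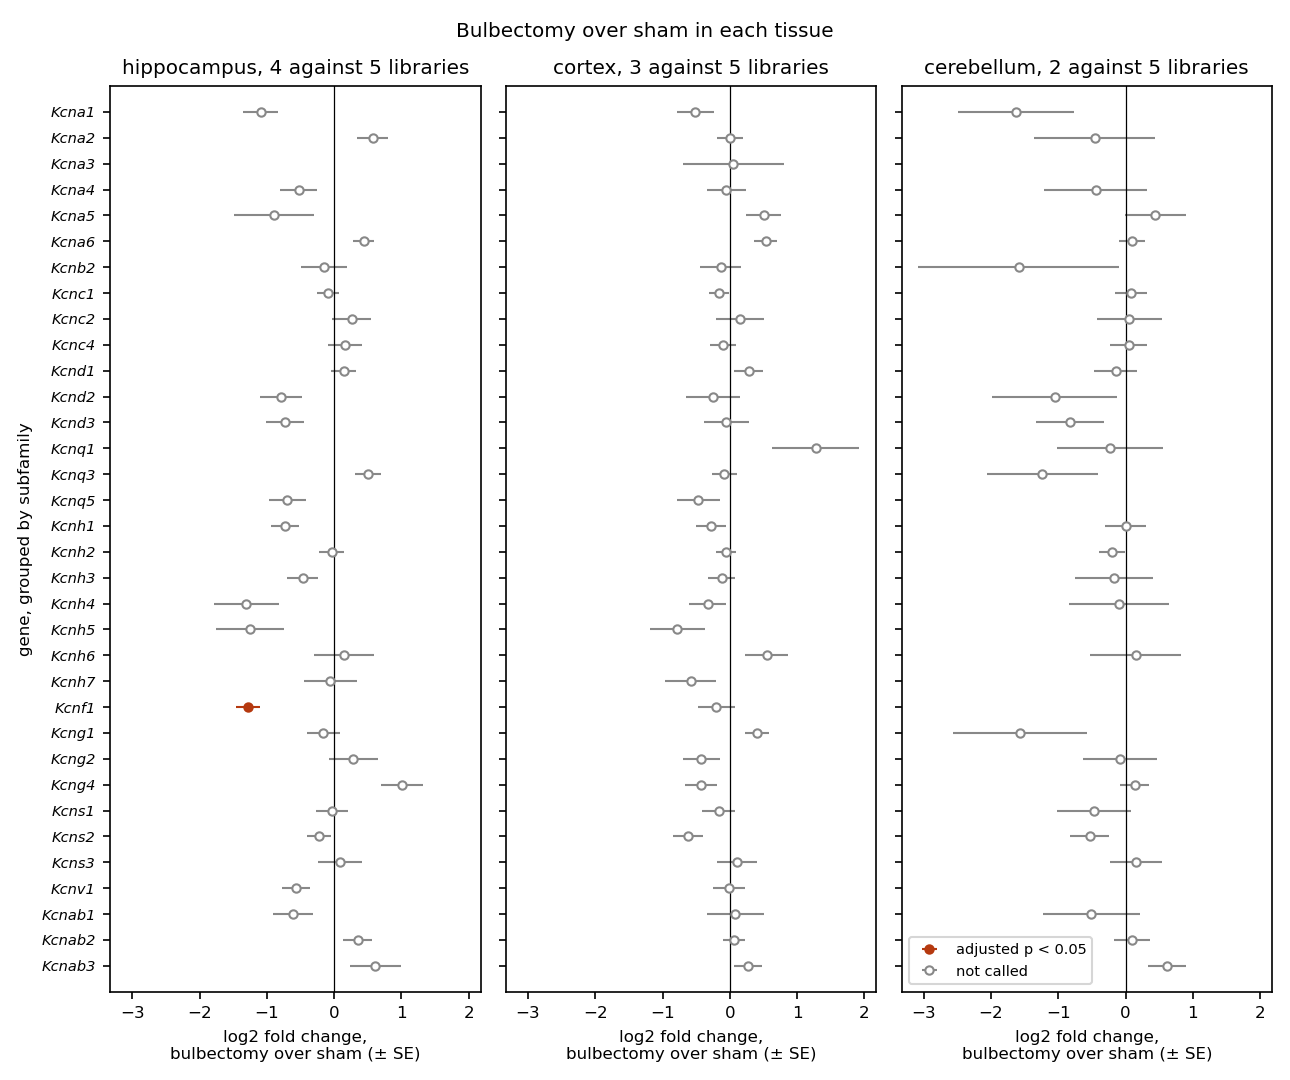
Log2 fold change of bulbectomy over sham with bars of 1 SE for 34 of the 38 genes tested in hippocampus, cortex or cerebellum, in subfamily order. The single filled point, at an adjusted p under 0.05, is Kcnf1 in hippocampus at -1.28. The longest bars are in cerebellum, where 2 libraries stand against 5 and sham 1 stood apart in several genes.

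In cortex edgeR called 0 of the 38 channel genes, where 0.0202% of all genes were called, and DESeq2 also called 0, where it called 0.262% of all genes. An unadjusted p under 0.05 was reached by 3 genes (7.89%), Kcna6, Kcns2 and Kcng1, beside 5.91% of all genes. Kcna6 had 85.7, 133 and 122 CPM after bulbectomy, against 82.7, 66.6, 83.7, 75.1 and 83.0 CPM in sham, without overlap. Its log2 fold change was 0.53 ± 0.17 (SE, adjusted p = 0.687), and it was the only one of the 38 genes whose groups did not overlap (2.63%, beside 3.64% of all genes). Kcns2, a silent subunit, had 20.5, 16.0 and 16.1 CPM after bulbectomy, against 31.9, 20.4, 35.3, 21.6 and 25.7 CPM in sham, at -0.62 ± 0.23 (SE, adjusted p = 0.741). Kcng1 had 31.4, 33.6 and 27.5 CPM after bulbectomy, against 20.2, 21, 29.96, 22.5 and 22.9 CPM in sham, at 0.40 ± 0.18 (SE, adjusted p = 0.833). The bulbectomy libraries of cortex disagreed with each other. Kcna1 had 22.3 CPM in bulbectomy 1, 8.46 in bulbectomy 2 and 12.6 in bulbectomy 4, against 18.02 to 24.4 CPM in sham. Without bulbectomy 1, Kcna1, Kcna6, Kcnh5 and Kcnh7 were called, Kcna6 higher and the other 3 lower. That is 10.5% of the channel genes, and 3.79% of all genes were then called, against 0.0202% with that library.

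The other cortex genes of smallest p were not called and overlapped between groups. Kcnq1 had 0.60, 1.52 and 1.76 CPM after bulbectomy and 0 to 0.97 CPM in sham, at a log2 fold change of 1.28 ± 0.65. Kcna5 was at 0.50 ± 0.26, Kcnh5 at -0.78 ± 0.41, Kcng4 at -0.43 ± 0.23 and Kcna1 at -0.51 ± 0.28 (SE). Without bulbectomy 1 the log2 fold changes of Kcnh5, Kcng4 and Kcna1 were -1.58, -0.23 and -0.98. Kcnf1, the gene called in hippocampus, had 79.8, 33.0 and 37.5 CPM after bulbectomy, against 66.6, 42.1, 59.0, 52.5 and 68.4 CPM in sham, at a log2 fold change of -0.20 ± 0.28 (SE, adjusted p = 0.919). Here bulbectomy 1 was above every sham library, and bulbectomy 2 and 4 were below every one.

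In cerebellum edgeR called 0 of the 32 channel genes it tested, where it called 0.0131% of all genes. DESeq2 called 0 of 36, where it called 0.0603% of all genes. With edgeR 0 of the 32 had an unadjusted p under 0.05, beside 2.97% of all genes. The SEs ran from 0.19 for Kcnh2 to 1.49 for Kcnb2, with 2 bulbectomy libraries against 5 sham libraries. Kcna1, Kcna2, Kcnd2 and Kcnq3, in which sham 1 stood apart, had SEs of 0.82 to 0.93. The beta subunit Kcnab3 had the smallest p, with 36.8 and 28.0 CPM after bulbectomy, against 30.8, 20.8, 17.2, 20.5 and 16.5 CPM in sham, at a log2 fold change of 0.62 ± 0.29 (SE, adjusted p = 0.9998). Kcna1 had 13.5 and 12.1 CPM after bulbectomy, against 115, 14.2, 22.2, 24.2 and 22.2 CPM in sham, at -1.63 ± 0.86 (SE), and -0.70 without sham 1. Kcns2 had 6.13 and 5.57 CPM after bulbectomy, against 7.36 to 10.6 CPM in sham, at -0.53 ± 0.29, and Kcnd3 had 28.2 and 24.6 CPM, against 31.15 to 97.4 CPM in sham, at -0.82 ± 0.50 (SE). The 97.4 CPM belonged to sham 1, and without it the log2 fold change of Kcnd3 was -0.38. With Kcna1 this gives 3 of 32 genes without overlap (9.38%), beside 10.9% of all genes. Kcng1, Kcnq3, Kcnd2 and Kcnb2 had log2 fold changes of -1.57, -1.24, -1.05 and -1.59, each with an SE of at least 0.82. Kcng1 had 0.30 and 0.20 CPM after bulbectomy, from 8 reads, against 0.18 to 1.79 CPM in sham, from 50 reads. For Kcnq3, Kcnd2 and Kcnb2 the highest value was that of sham 1, and without it the log2 fold changes of Kcnq3 and Kcnd2 were -0.38 and 0.06 and Kcnb2 had too few reads to be tested. Kcng4, abundant in cerebellum, overlapped between the groups. It had 465 and 449 CPM after bulbectomy and 319 to 516 CPM in sham, at 0.14 ± 0.22 (SE).

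The single-library pattern ran along the GC content of the genes. In cerebellum sham 1 it also ran along exon length (log2), at r = 0.62 over the 32 channel genes and 0.48 over all genes. The 38 genes tested had exon GC contents of 39.3% to 61.5%, with a median of 53.9%, beside 50.04% over all genes tested. In cerebellum sham 1, Kcnd2 and Kcnb2, with exon GC contents of 44.4% and 39.3%, had 294 and 5.25 CPM, against 31.8 to 51.9 CPM and 0.31 to 0.61 CPM in the other sham libraries. Cortex bulbectomy 4 ran the opposite way, at r = 0.64 over the 38 channel genes and 0.48 over all genes. Hippocampus sham 4, the deepest library, had r = -0.59 over 36 channel genes and -0.44 over all genes. Other libraries had such correlations with GC too. Over the channel genes r was -0.51 in cortex sham 5, -0.49 in cortex bulbectomy 1, -0.44 in hippocampus sham 1 and 0.44 in cortex sham 2. These correlations are across genes of 1 library and describe that library, since genes are not independent replicates. The log2 fold changes of bulbectomy over sham correlated with GC at 0.18 in hippocampus (n = 36 genes), 0.17 in cortex (n = 38) and 0.48 in cerebellum (n = 32). After correction of each library for a smooth dependence on length and GC, hippocampus had 3 called genes, Kcnf1 and Kcna1 lower and Kcna2 higher, cortex 0 and cerebellum 0. The same correction raised the share of all genes called in hippocampus to 3.32%, against 1.55% without it, and gave 0.0471% in cortex and 0.0131% in cerebellum.

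**Figure D5:**
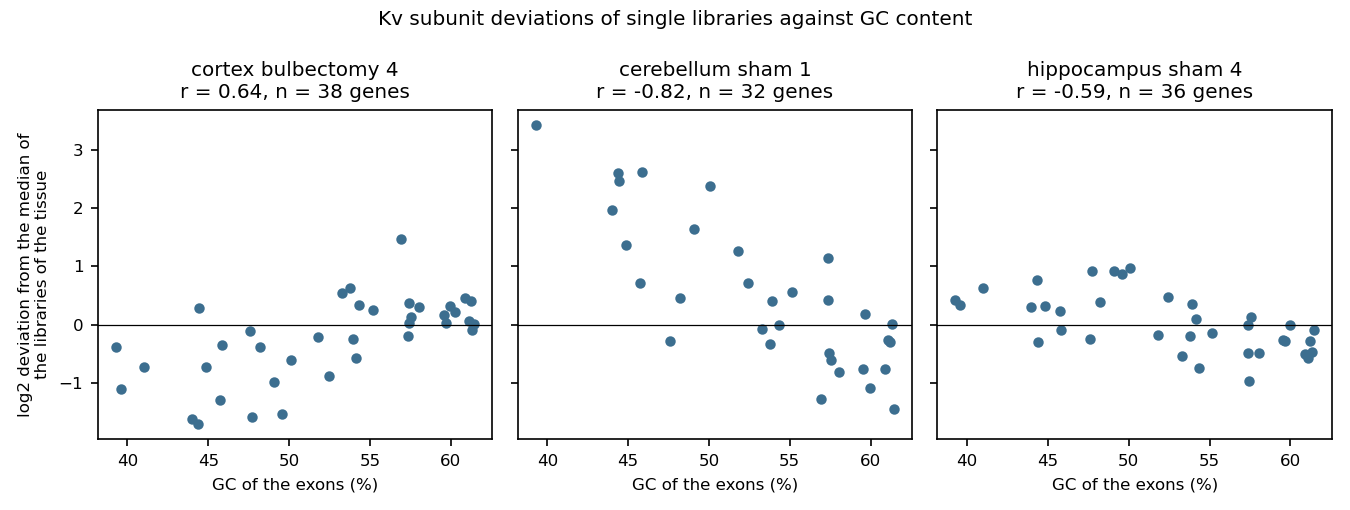
Log2 deviation of each channel gene from the median of its tissue in 3 single libraries, against the GC content of its exons in percent. Low-GC genes lie high and high-GC genes low in cerebellum sham 1 (r = -0.82, n = 32), with the same slope to a lesser degree in hippocampus sham 4 (r = -0.59, n = 36) and the opposite slope in cortex bulbectomy 4 (r = 0.64, n = 38).

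The bulbectomy effect was also compared between tissues in 1 fit of all 24 libraries. For hippocampus minus cortex, cerebellum minus cortex and cerebellum minus hippocampus edgeR called 0 of 38 channel genes each, where 0% of the 16564 genes tested were called, and DESeq2 called 0 in all 3. An unadjusted p under 0.05 was reached by 3, 1 and 3 channel genes (7.9%, 2.6% and 7.9%), beside 2.8%, 1.7% and 3.1% of all genes. The difference of the Kcnf1 effect was -1.11 ± 0.34 for hippocampus minus cortex and 1.35 ± 0.54 for cerebellum minus hippocampus (SE). In cerebellum Kcnf1 was below the filter, with 15 reads over 2 bulbectomy libraries and 31 over 5 sham libraries, so the second value is limited by counting. Without cortex bulbectomy 1 the value for hippocampus minus cortex was -0.64. That of Kcng4 was 1.39 ± 0.41 for hippocampus minus cortex (SE), and that of Kcna5 -1.44 ± 0.64 (SE). Without hippocampus sham 1 and 2 the Kcna5 value was -0.15. For cerebellum minus cortex the smallest p-values belonged to Kcng1 at -1.996 ± 0.78, Kcnq3 at -1.10 ± 0.60 and Kcna6 at -0.45 ± 0.26 (SE). Kcng1 had 8 reads over the 2 cerebellum bulbectomy libraries and 50 over the 5 cerebellum sham libraries, so its value is limited by counting. For cerebellum minus hippocampus Kcnq3 was at -1.63 ± 0.59 and Kcnh1 at 0.80 ± 0.33 (SE). Without cerebellum sham 1 the Kcnq3 values were -0.33 for cerebellum minus cortex and -0.87 for cerebellum minus hippocampus. The lowest adjusted p of these genes in edgeR's test was 0.9998. A fall of Kcnf1 that is particular to hippocampus was therefore not shown after adjustment. Among the 31 genes tested in all 3 tissues, 11 had negative log2 fold changes in each, 7 positive ones in each and 13 mixed signs. Without hippocampus sham 1 and 2 and cerebellum sham 1, these were 8, 6 and 16 of 30 genes. The share over all genes was not computed for these sign counts, so they do not set the family apart from other genes. Kcna1 was negative in each tissue, at -1.09, -0.51 and -1.63, and Kcna6 positive in each, at 0.44, 0.53 and 0.09 in hippocampus, cortex and cerebellum.

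Other channel genes and Kv partners were read from lists of channel families. Of 24 auxiliary subunits and scaffolds of Kv channels, 22 were tested in hippocampus and 1 was called. Kcnip1, a calcium-binding partner of the Kv4 channels, had 30.6, 27.3, 21.9 and 27.7 CPM after bulbectomy, against 17.1, 15.1, 12.6, 11.0 and 17.3 CPM in sham. Its groups did not overlap, and the log2 fold change was 0.89 ± 0.19 (SE, adjusted p = 0.0385), while the Kv4 subunits Kcnd2 and Kcnd3 were at -0.79 ± 0.31 and -0.73 ± 0.29 (SE), with adjusted p-values of 0.186 and 0.18. Without hippocampus sham 1 and 2 the log2 fold change of Kcnip1 was 0.99 (adjusted p = 0.0270). Inward rectifiers (12 tested of 15), two-pore channels (10 of 13), calcium- and sodium-activated channels (8 of 12), HCN pacemaker channels (4 of 4) and voltage-gated sodium channels (9 of 13) had 0 called genes in hippocampus with edgeR, where 3, 4, 0, 0 and 0 had an unadjusted p under 0.05 and DESeq2 called 2 two-pore genes, Kcnk3 and Kcnk5. Over all 6 lists 12 of the 65 genes tested in hippocampus had an unadjusted p under 0.05, where 20.0% of all genes did. Of these 65, edgeR called 1 and DESeq2 3, beside 1.55% and 6.09% of all genes. In cortex and in cerebellum edgeR and DESeq2 called 0 genes of these 6 lists. An unadjusted p under 0.05 was reached there by 2 of 67 and 2 of 62 genes, beside 5.91% and 2.97% of all genes. Between sham cerebellum and sham cortex 12 of 22 partners, 7 of 12 inward rectifiers, 7 of 10 two-pore channels, 5 of 10 calcium- and sodium-activated channels, 1 of 4 HCN channels and 6 of 10 sodium channels were called, beside 26 of 38 Kv subunits and 34.7% of all genes tested.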

How the data were processed

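RNA from mouse hippocampus, cortex and cerebellum was sequenced, and the authors deposited 1 file of raw read counts per gene for each of the 24 libraries. Per the submitters' processing notes, Trimmomatic, STAR and featureCounts were used with mm10, and their versions and the strand setting are not given there. Per the labels' protocols, RNA had an integrity number of at least 8 and the kit was directional. The 12 rows of totals in each file were left out of library sizes and tests.

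Counts were tested with edgeR 4.0.16 in R 4.3.3 (TMM scaling, filterByExpr, robust quasi-likelihood test), with 1 fit per tissue for bulbectomy, 1 of all 24 libraries for differences between tissues in its effect, and 1 of the 15 sham libraries for tissues. P-values were adjusted by Benjamini-Hochberg over all genes tested, and a call is an adjusted p under 0.05. Bulbectomy levels are CPM scaled within a tissue, and sham levels are CPM per kilobase of the merged exons in GENCODE M21 on GRCm38, which held 55227 of the 55487 identifiers. Counting error is smallest in the deepest library, of 138963332 reads, and largest in the shallowest, of 3255661.

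Alternatives were DESeq2 1.42.0, RLE scaling, no low-count filter, a fold threshold, 1 fit of all libraries, a correction for exon length and GC content, the replicate number as a block, and each library left out. The correction was chosen after seeing the data for the sham and between-tissue comparisons. The tests were checked on simulated data.

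The members and lists were chosen with earlier results of these data known. Full values are given for called genes or the 8 of smallest p per tissue, the 3 of smallest p per difference between tissues, the 4 largest called differences in each direction between sham tissues, and the 3 highest levels per tissue. Other genes were chosen after their values were seen. A few members enter the counts but are not reported here by name. Replicate numbers come from the labels. Same-numbered sham cerebellum and sham hippocampus libraries deviated together, at r = 0.258 to 0.565 over 5 pairs, and the replicate block did not change the sham cerebellum and hippocampus counts by over 1.5 times.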

Additional observations from a re-analysis of the deposited data

Results flagged for a closer look

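In 12 of 80 groups of 4 or more libraries, over 21 channel genes, 1 library lay far from the rest by Dixon's criterion. Chance alone meets it in about 1 of 20 independent groups. The genes looked at share libraries and were chosen with their values known, so 12 of 80 cannot be set against that rate. Cerebellum sham 1 was that library in 6 of the 12. There Kcna1 had 115.1 CPM (14.2 to 24.17 in the other 4), Kcnb2 5.245 (0.3099 to 0.6088), Kcnd2 293.5 (31.8 to 51.91), Kcnd3 97.44 (31.15 to 41.82), Kcnh1 84.81 (40.64 to 52.92) and Kcnq3 22.4 CPM (3.564 to 5.17). Kcna5 had 2.705 CPM in cerebellum sham 5, against 1.34 to 1.705 in the other 4, and Kcnh3 had 12.24 CPM in cerebellum sham 2, against 3.289 to 5.346. In hippocampus, Kcnd2 had 8.82 CPM in bulbectomy 3, against 18.03 to 19.11 in the other 3, and Kcnh5 had 0.4504 CPM in sham 3, against 1.271 to 1.436. In cortex, Kcng1 had 29.96 CPM in sham 3, against 20.16 to 22.9, and Kcnq3 had 86.54 CPM in sham 2, against 57.36 to 65.1.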

How the results depend on the processing

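The hippocampus count of 1 was 4 with DESeq2, 2 without sham 1 and 2, 3 with the length and GC correction and 2 without the low-count filter, and 1 to 4 with a single library left out (3 without sham 2, 4 without sham 5). Over all genes, 217 were called in the main test, 938 with DESeq2, 348 without sham 1 and 2 and 464 with the correction. The number was 230 without the filter, 477 without sham 2 and 299 without sham 5. Kcnf1 was among the genes called in all 17 alternatives. The cortex count of 0 was 0 to 4 with a library left out, the 4 without bulbectomy 1, where the calls over all genes rose from 3 to 573. The sham hippocampus and cortex count of 6 was 0 against a fold of 2, 11 with the length and GC correction and 2 to 13 with a library left out. Over all genes the count of 500 was 15, 895 and 284 to 1101 in the same order. The counts for cerebellum over cortex (26) and over hippocampus (25) ranged over 22 to 28 and 23 to 28 with a library left out, and were 18 and 19 against a fold of 2. Over all genes the counts of 5251 and 4296 ranged over 4590 to 7743 and 3727 to 6027, and were 1615 and 1328 against a fold of 2. The cerebellum bulbectomy count and those for differences between tissues were 0 under every alternative run. With the replicate block the bulbectomy counts were 1, 0 and 0 in hippocampus, cortex and cerebellum, and the sham counts 8 for hippocampus over cortex, 28 for cerebellum over cortex and 27 for cerebellum over hippocampus. Over all genes these counts were 76, 13 and 0 for bulbectomy, and 765, 6517 and 5304 for sham. Among pairs of sham tissues, every same-numbered pair deviated together only for cerebellum with hippocampus. There each of the 5 libraries correlated best with its own number, and differently numbered pairs had r of -0.569 to 0.468. For the other comparisons r of same-numbered pairs was -0.352 to 0.031 in hippocampus, -0.227 to 0.225 in cortex and 0.337 to 0.43 over 2 pairs in cerebellum (bulbectomy with sham), and -0.198 to 0.57 for sham hippocampus with sham cortex and -0.274 to 0.514 for sham cerebellum with sham cortex, where 3 of 5 libraries in each correlated best with their own number. The 2 cerebellum bulbectomy libraries deviated as mirror images, at 0.43 and -0.43 with sham 1, so their 2 pairs are not independent. Among named genes, 1043 of 1102 recomputed values kept direction and side of the threshold, 46 lost and 12 gained a call, and 1 turned direction. That was Kcnd2 in cerebellum after bulbectomy, at 0.0585 without sham 1 and -1.31 to 0.0585 over the libraries left out. The causes were not tested. Genes with few reads, such as Kcnv1, Kcnf1 and Kcng1 in cerebellum, are limited by counting.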
